A study of Homo sapiens with 18 samples.

Results

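CNTN1, CLDN11 and TRO are 3 genes, of 23411 gene symbols counted, that stood far higher in an NRF2-edited clone of ARPE-19 cells than in control ARPE-19 cells. They were chosen from measured values, namely the size of the difference between untreated edited and untreated control libraries, so their values in that contrast are a description and carry no test here. ARPE-19 cells are a line of spontaneous origin from the retinal pigment epithelium of the human eye. The control cells had been transduced with lentiviral particles carrying Cas9 and no guide RNA, and the edited cells with the same vector carrying a guide to NFE2L2, the gene of the transcription factor NRF2. The edited cells came from 1 clone, in which both NFE2L2 alleles had acquired stop codons that remove the C-terminal end of the protein. Poly(A) RNA was sequenced from 6 groups of 3 libraries, which were control or edited cells left untreated, treated with 1 mM NACET (N-acetyl-L-cysteine ethyl ester, a cell-permeable cysteine donor) or treated with 0.2 mM H2O2. The sample labels give 22 h of culture in 1% serum and 2 h of treatment, whereas the description of the series gives 40 h in 10% serum and 8 h of treatment, and the text of the study also gives 8 h. Because all 9 edited libraries share 1 clone, the edit and any other feature of that clone cannot be told apart. The labels do not say whether the replicates were separate cultures, so the p-values measure the spread between these libraries.

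NRF2 is a transcription factor that is held low by KEAP1 in resting cells and that, on oxidative or electrophilic stress, binds antioxidant response elements with a small MAF partner and raises detoxifying and antioxidant genes. None of the 3 genes is among its textbook targets. CNTN1 encodes contactin 1, a neuronal adhesion molecule of the immunoglobulin superfamily that is anchored to the membrane by a lipid and that takes part in the axon-glia junction beside the node of Ranvier. CLDN11 encodes claudin 11, the tight junction protein that seals the myelin of the central nervous system and the barrier between Sertoli cells. TRO encodes trophinin, a membrane protein of the MAGE family known from the adhesion of trophoblast to the lining of the uterus. All 3 proteins are thus known for contacts between cells.

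In GRCh37, the release that corresponds to the hg19 build of the reads, CNTN1 lies on the plus strand at chr12:41086241-41466217, CLDN11 on the plus strand at chr3:170136656-170172521 and TRO on the plus strand at chrX:54946895-54957864. Their annotated exons join into 31, 7 and 15 blocks with 7649, 4321 and 6716 bases. CLDN11 shares 683 exon bases with an unnamed protein-coding model on the same strand that was not among the counted symbols, and TRO holds the small nucleolar RNA gene SNORA11, which had at most 2 reads in any library. The 250 bases before the first listed start of each gene are shown because the 3 genes stood high together, and because the binding motif of NRF2 can be looked up in them. The listed starts of CNTN1 were not matched to the gene start given above, which is in another build. Its windows may thus lie at alternative starts inside the gene. Sequences are from RefSeq on GRCh38.p14, 5′ to 3′ on the strand of the gene, and capitals mark matches on either strand to CCAAT or GGGCGG, the motifs of the CCAAT-binding factors and of the SP family.
CNTN1, chr12:40827934-40828183, plus strand: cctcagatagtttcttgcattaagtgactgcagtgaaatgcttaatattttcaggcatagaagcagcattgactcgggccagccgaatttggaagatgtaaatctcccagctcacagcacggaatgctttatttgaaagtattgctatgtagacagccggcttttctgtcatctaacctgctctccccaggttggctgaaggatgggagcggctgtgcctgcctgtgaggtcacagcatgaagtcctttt
CLDN11, chr3:170418618-170418867, plus strand: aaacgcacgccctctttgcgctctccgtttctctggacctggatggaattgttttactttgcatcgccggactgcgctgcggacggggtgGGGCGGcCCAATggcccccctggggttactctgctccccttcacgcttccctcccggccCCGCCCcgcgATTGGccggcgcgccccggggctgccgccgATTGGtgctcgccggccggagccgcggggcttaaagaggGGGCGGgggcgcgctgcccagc
TRO, chrX:54920574-54920823, plus strand: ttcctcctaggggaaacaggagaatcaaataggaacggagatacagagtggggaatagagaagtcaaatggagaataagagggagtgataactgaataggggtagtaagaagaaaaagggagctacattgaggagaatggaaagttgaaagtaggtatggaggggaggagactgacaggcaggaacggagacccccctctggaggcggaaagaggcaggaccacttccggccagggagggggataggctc

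No match to the antioxidant response element core, written TGACNNNGC, was found on either strand in these windows or at the second listed start of CNTN1 and of CLDN11. Of 35116 windows of the same length in the table, 10.9% held that motif. The looser form TGANNNNGC, which includes the first, was also without a match in the 5 windows and was present in 35.2% of all windows. TATAAA was absent from the 5 windows as well and present in 10.7% of all. The CLDN11 window held 3 matches to CCAAT and 3 to GGGCGG, motifs found in 32.0% and 42.6% of all windows, and the windows of CNTN1 and TRO printed above held neither. CLDN11 also had a CpG-rich window, with 29 CpG dinucleotides against 5 for CNTN1, 4 for TRO and a median of 11. A match describes letters only, and its absence says nothing of binding outside these windows, which for CNTN1 may not include the main start.

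The libraries held 16673306 to 25951154 reads on genes, with a median of 21447433.5, and 15901 to 16581 genes with at least 1 read. NFE2L2 itself cannot check the edit, since a stop codon need not change the RNA level, and it stood at 124 ± 2.44 CPM (reads of a gene scaled to a common library size with edgeR's TMM factors; SD, n = 3) in untreated control and 126 ± 1.89 CPM in untreated edited cells. NQO1, a classical NRF2 target, stood at 228 ± 92.9 CPM in untreated control and 14.0 ± 2.34 CPM in untreated edited libraries, in the direction of the labels. Of 13 markers of the retinal pigment epithelium, OTX2, MITF, KRT8 and KRT18 were well expressed in both lines, whereas RPE65, RLBP1, TTR and TYR each averaged under 1 CPM.

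CNTN1 was nearly silent in control cells. Its levels in the 3 untreated control libraries were 0.267, 0.145 and 0.273 CPM, from 6, 3 and 6 reads. In control cells under NACET they were 1.09, 0.529 and 0.288 CPM, and under H2O2 0.884, 0.213 and 0.245 CPM. The control values rest on 3 to 22 reads a library, and the 95% exact Poisson interval of the 3-read library ran from 0.0298 to 0.423 CPM, which covers counting error only. In edited cells CNTN1 stood at 12.1, 7.60 and 10.5 CPM untreated, at 17.0, 11.2 and 11.6 CPM under NACET and at 14.2, 10.3 and 11.4 CPM under H2O2, from 196 to 407 reads a library. The lowest edited library, an untreated one whose level entered the choice of the gene, thus lay 6.95-fold above the highest control library. In the untreated contrast that chose the gene, the means were 10.1 ± 2.30 and 0.228 ± 0.0725 CPM (SD, n = 3 each), a ratio of 44.2 and a fitted log2 fold change of 5.42 (SE 0.32).

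CLDN11 was the gene of the 3 with a clear level in control cells. It stood at 3.91, 2.99 and 5.10 CPM in untreated control libraries, at 4.33, 3.86 and 5.60 CPM under NACET and at 4.30, 5.20 and 7.70 CPM under H2O2. These values rest on 62 to 157 reads a library, so the gene was detected in all 9 control libraries well above the counting floor of 3 reads. In edited cells the values were 35.8, 73.3 and 50.9 CPM untreated, 36.1, 52.6 and 47.3 CPM under NACET and 35.2, 65.3 and 60.7 CPM under H2O2. The lowest edited library lay 4.58-fold above the highest control library, both of them under H2O2. The edited libraries of 1 group differed by up to 2.05-fold among themselves. The untreated means were 53.4 ± 18.9 and 4.00 ± 1.06 CPM (SD, n = 3 each), with a ratio of 13.3 and a fitted log2 fold change of 3.73 (SE 0.30).

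TRO was low in control cells, with 1.78, 0.771 and 0.410 CPM in the untreated libraries, 0.845, 0.423 and 0.659 CPM under NACET and 0.884, 0.597 and 0.490 CPM under H2O2. The untreated control libraries were uneven, with 40 reads in replicate 1 and 16 and 9 in the others. In edited cells TRO stood at 14.0, 11.6 and 12.6 CPM untreated, at 7.90, 8.08 and 8.31 CPM under NACET and at 6.37, 7.18 and 9.35 CPM under H2O2. The lowest edited library lay 3.58-fold above the highest control library, an untreated one whose level entered the choice of the gene. The untreated means were 12.7 ± 1.21 and 0.986 ± 0.709 CPM (SD, n = 3 each), with a ratio of 12.9 and a fitted log2 fold change of 3.67 (SE 0.39). Leaving out control replicate 1 moved that value to 4.42, so the untreated contrast of TRO leaned on this library by more than 1.5 times.

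**Figure D1:**
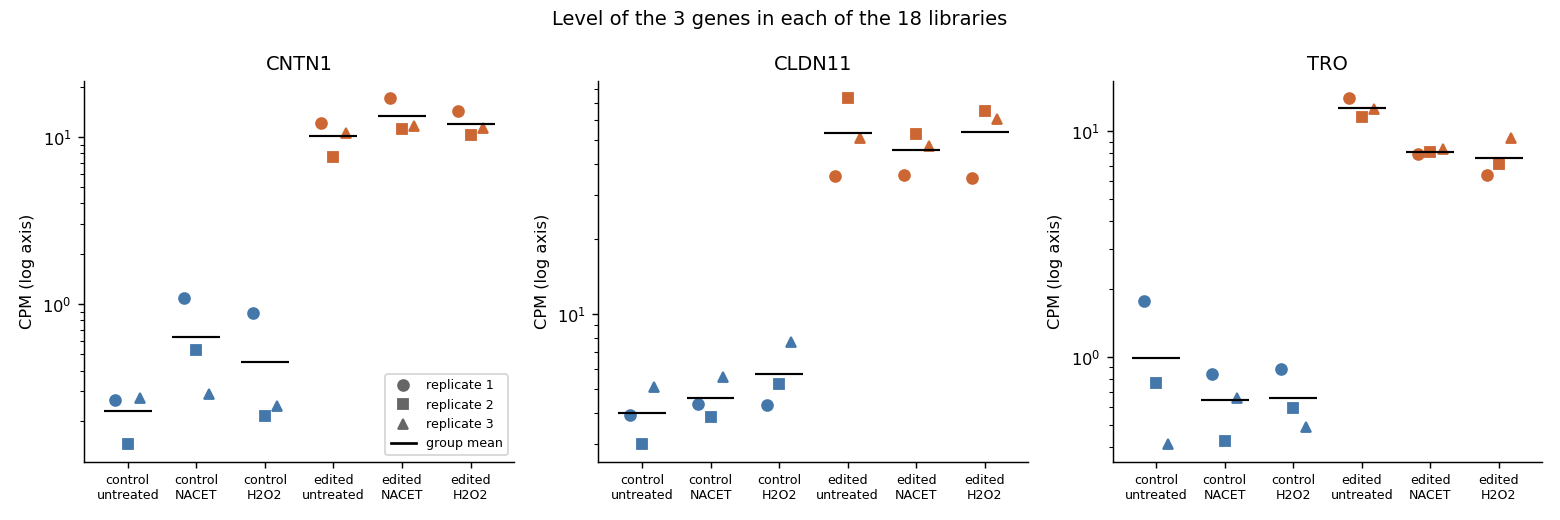
Level of CNTN1, CLDN11 and TRO in CPM (log axis) in each of the 18 libraries, by group. Each point is 1 library, its shape gives the replicate number, blue is control and orange edited, and the line is the group mean. In each panel the 9 edited libraries lie above the 9 control libraries, and TRO is highest in untreated edited cells at 12.7 CPM on average. The untreated libraries among them chose the genes, and the share of all genes separated in this way was not computed.

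Per length, which allows the genes to be set against each other, CLDN11 was the most abundant of the 3. Divided by the exon bases given above, its mean level over the 9 edited libraries was 11.8 CPM per kb, against 1.54 for CNTN1 and 1.41 for TRO. Over the 9 control libraries the same quantity was 1.11, 0.0572 and 0.113 CPM per kb. Among 16267 detected genes with an annotated length, CLDN11 exceeded 77.9% in edited and 39.4% in control cells, CNTN1 43.2% and 21.5%, and TRO 42.3% and 25.4%. In edited cells CLDN11 thus stood among the more abundant transcripts and the others a little under the middle.

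In the untreated contrast 92 genes were called higher, averaged at least 1 CPM over the 6 libraries and had groups that did not overlap. Among these, CNTN1, CLDN11 and TRO ranked 1, 2 and 3 by fold change, which follows from their choice in this contrast. Their place there is a description and no test of them. Called means that edgeR's quasi-likelihood test gave an adjusted p below 0.05 and that the fitted log2 change was 0.6 or more in either direction, a bar that 0.729% of the 13710 genes tested passed upward. The 4 other genes with a fold change above that of TRO all averaged under 1 CPM. Just outside the 3 stood CKB, the brain-type creatine kinase, with a log2 fold change of 3.63 against 3.67 for TRO just inside. The next were RTN1, a reticulon of the endoplasmic reticulum, at 2.93, and RPSAP52, a ribosomal protein pseudogene, at 2.75, whose count leaves out reads aligned to more than 1 place. No gap thus separates the 3 genes from the next one in this ranking.

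The treated libraries were not used in choosing the genes, and they allow the difference between edited and control cells to be tested again, in the same clone. CLDN11 passed the filter on low counts in either line alone, under both agents, and TRO did so under H2O2. CNTN1 under both agents and TRO under NACET passed it only through their edited libraries, where a gene has to differ, so their values are given first as a description. Under NACET the log2 fold change of edited over control cells was 3.26 (SE 0.19, adjusted p = 8.68e-05) for CLDN11, which was called, and it was 4.38 (SE 0.40) for CNTN1 and 3.60 (SE 0.24) for TRO. Of all 13627 genes tested 0.895% were called higher, and 12.7% had groups that did not overlap in that direction, as those of the 3 genes did not. Under H2O2 it was 3.21 (SE 0.29, adjusted p = 0.00037) for CLDN11 and 3.54 (SE 0.29, adjusted p = 0.000231) for TRO, both called, and 4.79 (SE 0.41) for CNTN1. Here 1.41% of 13580 genes were called higher and 15.1% had groups apart in that direction, again with the 3 genes among them. In the same edgeR test with no filter on low counts, the edited level does not decide which genes enter. There CNTN1 had a log2 fold change of 4.39 (adjusted p = 0.000169) under NACET and 4.78 (adjusted p = 9.19e-06) under H2O2. TRO had 3.62 (adjusted p = 3.37e-05) under NACET. This setting also lowered the adjusted p of CLDN11, to 1.2e-05 under NACET and 1.13e-05 under H2O2. Adjusted p-values with and without the filter are thus not to be set against each other. The control means of CNTN1, 0.637 ± 0.414 CPM under NACET and 0.447 ± 0.378 CPM under H2O2 (SD, n = 3), make the size of its fold uncertain. It became 5.03 without control NACET replicate 1 and 5.64 without control H2O2 replicate 1, the control libraries with most CNTN1 reads. A rise that stayed under treatment was not particular to the 3 genes. Under NACET and H2O2 the log2 fold change was 2.95 and 2.89 for RTN1, 3.30 and 3.36 for RPSAP52, and 1.83 and 5.02 for CKB.

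**Figure D2:**
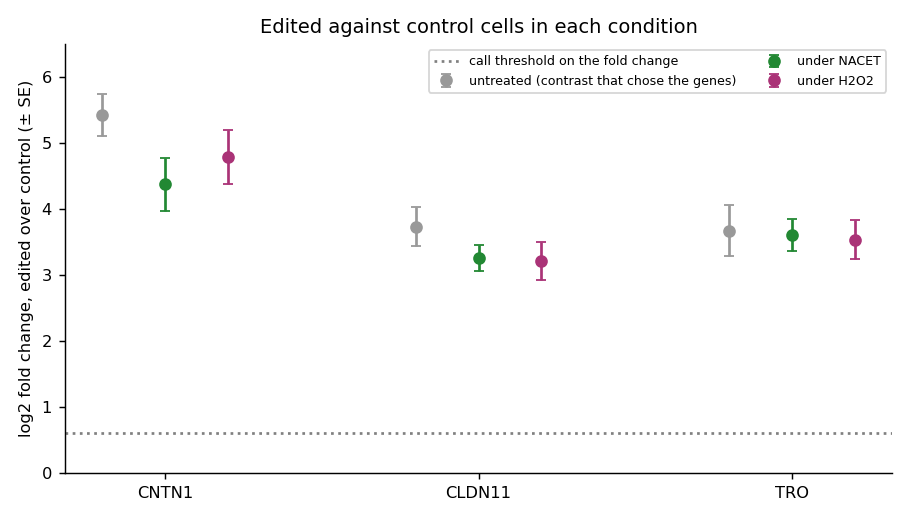
Fitted log2 fold change of edited over control cells for each gene, untreated (grey, the contrast that chose the genes), under NACET (green) and under H2O2 (purple), with bars of 1 SE. All values lie between 3.21 and 5.42, far above the dotted line at 0.6, the size required for a call.

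No gene of the 3 was called between the 2 agents. NACET against H2O2 gave a log2 difference in edited cells of 0.18 (SE 0.21, adjusted p = 0.63) for CNTN1, -0.22 (SE 0.25, adjusted p = 0.61) for CLDN11 and 0.11 (SE 0.19, adjusted p = 0.761) for TRO. None of the 3 was called in this comparison, where 8.31% of 13489 genes were called, and 2092 once the replicate number was a block in the fit. With that block edgeR's adjusted p was 0.205 for CNTN1, 0.0733 for CLDN11 and 0.487 for TRO, still without a call. In control cells the differences were 0.59 (SE 0.67, adjusted p = 0.648), -0.30 (SE 0.25, adjusted p = 0.52) and 0.019 (SE 0.36, adjusted p = 0.981) in the same order. None was called there either, against 3.67% of 13581 genes, and 1019 genes with that block. In control cells the block gave an edgeR adjusted p of 0.243 for CNTN1 and 0.0979 for CLDN11, and a log2 difference of -0.00177 for TRO. The groups overlapped for all 3 genes in both lines. CNTN1 was higher under NACET in 3 of 3 same-numbered pairs of each line, CLDN11 in 1 of 3 in each, and TRO in 1 of 3 control and 2 of 3 edited pairs. For CNTN1 in control cells the standard error exceeded 0.6, so a difference of that size was not detectable at this depth.

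Whether the edited-minus-control difference depended on the agent was tested as an interaction over the 12 treated libraries. The interaction estimate, the NACET-against-H2O2 difference in edited minus that in control cells, was -0.40 (SE 0.67) for CNTN1, 0.085 (SE 0.37) for CLDN11 and 0.099 (SE 0.38) for TRO, with an edgeR adjusted p = 1.00 for each. None of the 3 was called, in a test that called 1 gene, or 0.00719%, of 13915. At an unadjusted p under 0.05 it had 719 genes.

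The comparisons of treated with untreated cells use the untreated libraries that also chose the genes, so they are given as values without a test. Between treated and untreated edited cells 188 of 13542 genes were called under NACET and 1329 of 13543 under H2O2. The share of all genes with groups apart was not computed for these comparisons. TRO was chosen for a rise in untreated edited cells, a choice that favours lower values after treatment. In edited cells its 3 untreated libraries, at 11.6 to 14.0 CPM, lay above all 6 treated ones, at 6.37 to 9.35 CPM. Its log2 difference from untreated was -0.67 (SE 0.14) under NACET and -0.76 (SE 0.20) under H2O2, and every same-numbered pair was lower after treatment. In control cells the values were -0.60 (SE 0.54) and -0.61 (SE 0.53), with overlapping groups and 1 of 3 same-numbered pairs higher each time, and both turned to 0.14 without untreated control replicate 1.

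CNTN1 in edited cells differed from untreated by 0.39 (SE 0.23) under NACET and by 0.22 (SE 0.22) under H2O2, with groups that overlapped although each of the 3 same-numbered pairs was higher after treatment. In control cells CNTN1 did not pass the filter on low counts in these comparisons, and its means ran from 0.228 CPM untreated to 0.447 under H2O2 and 0.637 under NACET. The 3 NACET-treated control libraries lay above the 3 untreated ones, while under H2O2 the groups overlapped and 2 of 3 same-numbered pairs were higher. The lowest NACET value was 0.288 CPM from 7 reads and the highest untreated one 0.273 CPM from 6 reads, with overlapping Poisson intervals. The choice of CNTN1 favours low values in untreated control cells, and thus higher ones after treatment. CLDN11 in edited cells differed by -0.26 (SE 0.25) under NACET and by -0.012 (SE 0.29) under H2O2, higher in 1 of 3 same-numbered pairs each time. In control cells it differed by 0.21 (SE 0.24) and 0.52 (SE 0.27), with overlapping groups although 3 of 3 same-numbered pairs were higher under either agent. By group mean the order was thus edited NACET, edited H2O2 and edited untreated for CNTN1, edited H2O2, edited untreated and edited NACET for CLDN11, and edited untreated, edited NACET and edited H2O2 for TRO, followed for each gene by the 3 control groups. Neighbours in that order overlapped except at the step from edited to control cells and at the step from untreated to NACET-treated edited cells for TRO.

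The spread among edited libraries followed the replicate number in the labels for CNTN1 and CLDN11, in opposite order. Edited replicate 1 had the most CNTN1 and the least CLDN11 in each of the 3 conditions, and edited replicate 2 had the least CNTN1 and the most CLDN11 in each. For CLDN11, replicate 1 held between 35.2 and 36.1 CPM whatever the treatment, and replicate 2 between 52.6 and 73.3. The 95% exact Poisson intervals of replicates 1 and 2 were apart for CLDN11 in each condition, for example 33.3 to 38.5 against 70.1 to 76.7 CPM untreated. Those of replicates 2 and 3 overlapped for both genes under NACET and under H2O2. For CNTN1 those of replicates 1 and 3 also overlapped untreated and under H2O2. The counts do not settle the place of replicate 3 where intervals overlapped. TRO showed no such order, with replicate 1 highest untreated and replicate 3 highest in both treated groups. In control cells replicate 3 had the most CLDN11 and replicate 1 the most TRO in each condition, and replicate 1 the most CNTN1 in the treated ones. Over all genes, same-numbered libraries of 1 cell line deviated together from their group means, with a correlation across genes of 0.308 to 0.723 over 18 pairs.

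**Figure D3:**
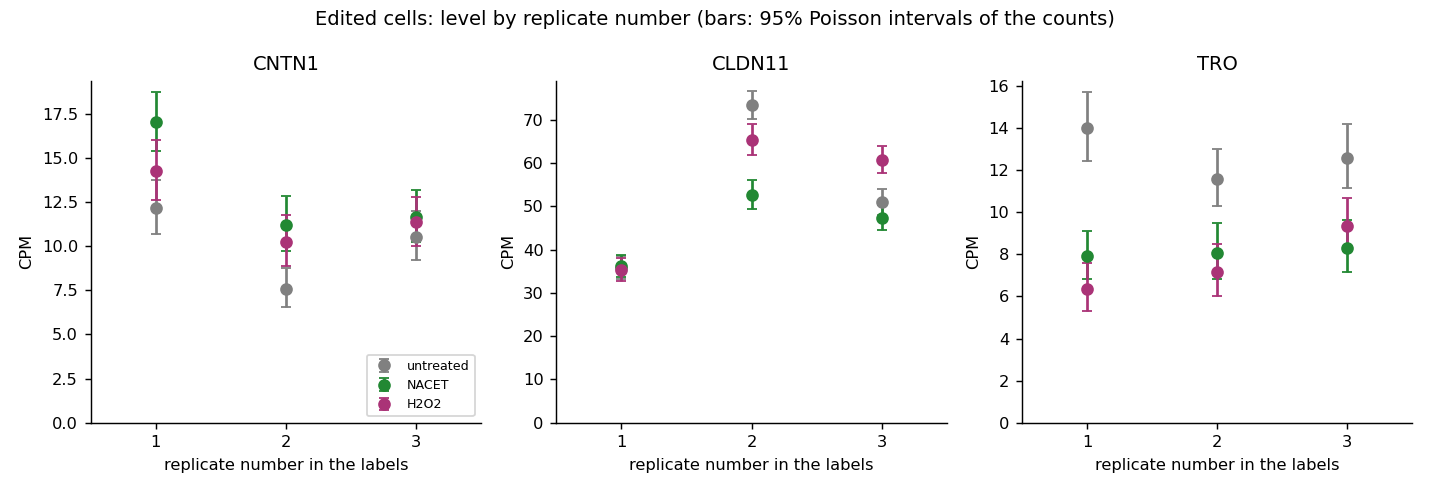
CPM of each gene in the 9 edited libraries, by replicate number, with untreated in grey, NACET in green and H2O2 in purple, and bars for 95% exact Poisson intervals of the counts. Replicate 1 is highest for CNTN1 and lowest for CLDN11, near 36 CPM, in every condition, and the untreated libraries stand apart for TRO.

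The chromosomal neighbours of the 3 genes are given by their values. Of the 5 counted symbols on each side of each gene, 30 in all, 20 were tested in the 3 comparisons of edited with control cells and none was called in any of them. Of all genes tested 0.729%, 0.895% and 1.41% were called higher and 3.12%, 3.86% and 4.2% lower (untreated, NACET and H2O2), so a count of 0 among 20 is near the background. Around CNTN1 the log2 fold changes of 7 tested neighbours ran from -0.70 to 0.40. The nearest symbols were PDZRN4, 115.9 kb beyond its end, with no read in any library, and LRRK2, a kinase gene 323 kb before its start, at 9.62 ± 3.05 CPM in control and 7.81 ± 3.70 CPM in edited cells (SD, n = 9). Around CLDN11 8 tested neighbours ran from -0.42 to 0.39. SLC7A14, a transporter gene whose nearest end lies 4.82 kb away, had 9 reads in all 18 libraries together, and SKIL, an inhibitor of SMAD signalling 22.0 kb on the other side, stood at 48.9 ± 9.29 and 61.4 ± 16.0 CPM. Around TRO 5 tested neighbours ran from -0.042 to 0.29. PFKFB1, an enzyme gene that begins 1.53 kb from the end of TRO, had 23 reads in all 18 libraries together, and MAGED2, a relative of TRO 104 kb away, stood at 89.9 ± 9.70 CPM in control and 91.2 ± 9.79 CPM in edited cells.

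The calls in the families and partners of the 3 genes are set beside the same shares of all genes, at which lists this short would hold few calls or none. Of 28 contactins, contactin-associated proteins and binding partners of CNTN1, 17 were tested untreated, 17 under NACET and 16 under H2O2. None was called higher in edited cells, and 0, 1 and 2 were called lower, where 3.12%, 3.86% and 4.2% of all genes were called lower. The list had a median log2 fold change of -0.27, -0.22 and -0.42, against 0.013, -0.0016 and 0.0056 for all genes tested. The genes called, named here after their values were seen, were CNTN3 under NACET and NFASC and ANK3 under H2O2. CNTN3, a contactin of the same family as CNTN1, had 25, 10 and 16 reads in the NACET-treated control libraries and 0, 0 and 1 in the edited ones, and over all 18 libraries it had 4 to 29 reads in control and at most 1 in edited cells. CNTN3 passed the filter on low counts under NACET only through its control libraries, and it was not tested in the other comparisons. Its reads thus went opposite to those of CNTN1, given here as a description. NFASC, which encodes the neurofascin that faces contactin 1 across the axon-glia junction, stood at 282 ± 48.0 CPM in control and 156 ± 38.9 CPM in edited cells under H2O2 (SD, n = 3). ANK3, an ankyrin that anchors neurofascin, stood at 20.1 ± 1.76 and 9.15 ± 3.40 CPM. CNTNAP1, the partner of contactin 1 on the axon, was expressed in both lines at 67.5 ± 21.4 CPM in control and 57.5 ± 20.6 CPM in edited cells (SD, n = 9) and was not called.

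Of 22 other claudins 9 were tested in each of the 3 comparisons and none was called in either direction, which is near the shares of all genes called, and 4 had no read in any library. Their medians were -0.17 untreated, 0.042 under NACET and -0.0081 under H2O2. CLDN12 and CLDN1 stood at 48.1 ± 5.58 and 25.2 ± 7.60 CPM in control and at 47.6 ± 6.23 and 17.7 ± 10.1 CPM in edited cells (SD, n = 9). CLDN19, the claudin typical of the retinal pigment epithelium in tissue, had no read in any library. Of 20 other tight junction genes counted, 15, 16 and 17 were tested and none was called, again near those shares, among them OCLN (occludin), at 11.8 ± 0.995 CPM in control and 11.3 ± 1.48 CPM in edited cells, and TJP1 (ZO-1), at 154 ± 22.9 and 142 ± 24.3 CPM. TSPAN3, known as a partner of claudin 11, stood at 382 ± 16.3 and 402 ± 37.3 CPM and was not called.

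Of 35 counted MAGE family genes other than TRO, 16 had no read and 6 were tested in each comparison. MAGEH1, a small member of the family on the X chromosome, was called higher untreated and under H2O2, with log2 fold changes of 0.77 and 1.22, and stood at 0.81 under NACET without a call, which made 1, 0 and 1 of 6 genes called higher, where 0.729%, 0.895% and 1.41% of all genes were, and none lower. Its levels were 3.89 ± 0.518 against 6.63 ± 0.251 CPM untreated (SD, n = 3) and 3.07 ± 0.0992 against 7.25 ± 1.26 CPM under H2O2. MAGED1, at 235 ± 45.4 CPM in control and 211 ± 39.1 CPM in edited cells (SD, n = 9), was not called. Of the 6 partners of trophinin 0, 1 and 1 were called lower, where 3.12%, 3.86% and 4.2% of all genes were. ERBB4, a receptor of heparin-binding EGF, was called lower under NACET at -0.98 and under H2O2 at -1.34, and stood at -0.62 untreated without a call. The others, BYSL (bystin), TROAP (tastin), KRT8, KRT18 and HBEGF, were expressed in both lines and none was called in the 3 comparisons. BYSL stood at 41.7 ± 9.53 CPM in control and 51.3 ± 19.3 CPM in edited cells, and KRT8 at 525 ± 80.3 and 562 ± 77.8 CPM (SD, n = 9).

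**Figure D4:**
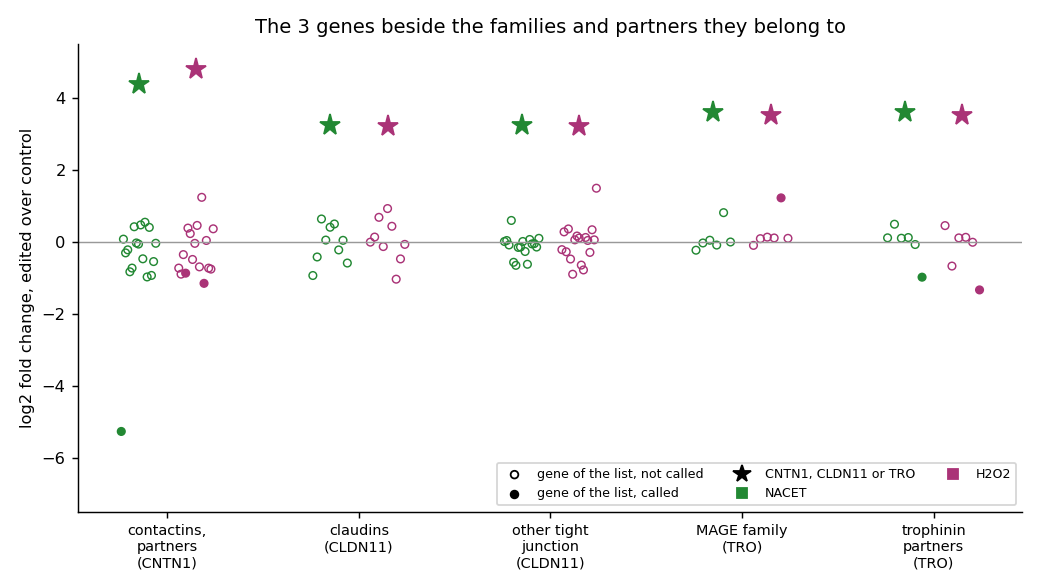
Fitted log2 fold change of edited over control cells for the tested genes of 5 lists under NACET (green) and H2O2 (purple), with CNTN1, CLDN11 or TRO as a star above its own list and filled points for genes called. The medians of the lists lie between -0.42 and 0.11, and the lowest point, -5.27, is CNTN3, which had 1 read in the edited NACET libraries, so that its fitted value depends on the prior count.

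CNTN1 and CLDN11 are best known from neurons and myelinating glia, and the markers of those cells were looked up beside them. Among the markers of myelinating glia, MBP, a major protein of myelin, stood at 100.5 ± 11.1 CPM in control and 76.0 ± 8.97 CPM in edited cells, and CNP, an enzyme of myelin-forming cells, at 102.3 ± 8.52 and 111.7 ± 12.2 CPM (SD, n = 9). Neither was called in any of the 3 comparisons of edited with control cells. MBP had log2 fold changes of -0.32 untreated, -0.42 under NACET and -0.52 under H2O2. Under H2O2 its edgeR adjusted p was 0.0462, and only the size of 0.6 was not reached. MAG, OLIG1 and OLIG2 had no read in any library, and MOG and SOX10 averaged under 1 CPM. The summed level of the list of 9 markers ran from 173 to 216 CPM in edited and from 189 to 230 CPM in control libraries, nearly all of it MBP and CNP. Of 10 neuron markers 4 were tested, with 1 called higher in each comparison and 0, 1 and 1 lower. Of all genes tested 0.729%, 0.895% and 1.41% were called higher and 3.12%, 3.86% and 4.2% lower. The list had a median log2 fold change of -0.22, -0.23 and -0.61. TUBB3, a tubulin of neurons that is also common in cultured cells, was called higher in all 3 comparisons, with log2 fold changes of 1.09 untreated, 0.98 under NACET and 1.24 under H2O2. MAP2 was called lower under NACET at -2.05 and under H2O2 at -1.44. SYT1, a calcium sensor of synaptic vesicles, stood at 24.8 ± 8.67 CPM in control and 14.6 ± 5.38 CPM in edited cells (SD, n = 9), with log2 fold changes of -0.81, -0.70 and -0.82 and no call. STMN2 and ELAVL4 had no read, and RBFOX3, SNAP25, ELAVL3, SYP and NEFL averaged under 1 CPM. The summed neuron list ran from 121 to 265 CPM in edited and from 80.3 to 164 CPM in control libraries, most of it TUBB3, with a median sum of 163 and 116 CPM, while the median log2 fold change of the list was below 0. The part of the list in the levels of the 3 genes was not tested. In bulk RNA a larger share of some cells and more RNA in each cell cannot be told apart. Of the 13 epithelial markers 8, 8 and 9 were tested, and their calls stand beside the same shares of all genes. MITF was called lower under NACET at -0.74, and none was called untreated. BEST1, which passed the filter only under H2O2, was called higher there at 1.13.

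Over the 18 libraries the 3 genes resembled each other, with Pearson correlations of log2(CPM + 1) of 0.94 for CNTN1 with CLDN11, 0.95 for CNTN1 with TRO and 0.95 for CLDN11 with TRO. The points fall into 2 clusters, the 9 edited and the 9 control libraries, so these values describe the step between cell lines. With the mean of each line subtracted, the correlations were -0.52, -0.19 and -0.10, so the likeness of the 3 genes was not seen within the lines. The genes most like CNTN1 over 18 libraries, among 12848 with a mean of at least 1 CPM, were VSTM4, IGFBP7, ZNF415, RTN1 and GALNT6, with r from 0.98 to 0.95. Those most like CLDN11 were LAT, EBF4, RTN1, BMP2 and REEP6 (0.97 to 0.96), and those most like TRO were TSTD1, IGFBP7, ZNF415, EBF4 and GAS6 (0.97 to 0.95). All of them stood higher in edited cells, for example LAT, the adaptor of T cell receptor signalling, at 4.69 ± 1.03 CPM in control and 39.8 ± 13.0 CPM in edited cells, and BMP2, a growth factor of the TGF-beta family, at 7.16 ± 1.07 and 20.2 ± 4.64 CPM (SD, n = 9). With line means subtracted the lists changed to C16orf88, SLC35D1 and WASF3 for CNTN1 (0.87 to 0.85), SF3A2, CCDC78 and PPAP2C for CLDN11 (0.89 to 0.86) and ARHGEF17, FMN1 and TEAD2 for TRO (0.88 to 0.82). Of these only PPAP2C, ARHGEF17 and FMN1 differed by more than 2-fold in mean level between the lines, and each was lower in edited cells.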

How the data were processed

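The authors prepared TruSeq v2 poly(A) libraries and sequenced them single-end on a NextSeq instrument. Per the labels and the methods, reads were aligned to hg19 with TopHat2 2.1.0 and Bowtie, counted without strand over exons with HTSeq 0.11.2 and stripped of rRNA genes. The gene annotation is not given in the sources used here. The deposited values are whole-number read counts per symbol, and the 5 HTSeq summary lines were left out. Members and lists were chosen with earlier results of these data known. Counts were fitted with edgeR 4.0.16 (R 4.3.3; filterByExpr, TMM, quasi-likelihood test, Benjamini-Hochberg adjustment over all genes tested), each comparison on its own 6 libraries and the interaction on 12. The steps were tested on simulated data. CPM was scaled by TMM factors over 18 libraries. Exon positions are from GENCODE on GRCh37. Genes named were the 3 genes, the next 3 by rank, the 5 and 3 most alike, up to 5 neighbours a side, markers, and up to 4 per list called alike in all 3 comparisons of edited with control cells. Others named from the lists were chosen after their values were seen. Same-numbered libraries of 1 cell line correlated at 0.308 to 0.723. The main fits held no replicate block, so their p-values do not use this pairing. It entered only the fits with a replicate block and the counts of same-numbered pairs. Between lines the range was -0.316 to 0.609. It was 0.515 to 0.609 for replicate 1, 0.243 to 0.518 for replicate 3 and -0.316 to 0.000721 for replicate 2. Libraries numbered 1 and 3 thus also deviated together across the lines, and whether they share a batch was not tested. All 18 same-group library pairs differed by more than sampling noise. Alternatives were DESeq2 1.42.0, RLE factors, other filters, 1 fit of 18 libraries, a replicate block, each library left out, no TMM factor and another pseudocount. Results for some of the glial markers are not reported here.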

Additional observations from a re-analysis of the deposited data

How the results depend on the processing

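The 3 genes kept their direction in edited against control cells under NACET and H2O2 with every alternative run, as did CLDN11 (both agents) and TRO (H2O2) their call, and the mean levels moved by less than 1 SD without TMM factors. Leaving out 1 library gave log2 fold changes of 4.00 to 5.03 (NACET) and 4.40 to 5.64 (H2O2) for CNTN1, 3.15 to 3.45 and 3.03 to 3.46 for CLDN11, and 3.40 to 3.84 and 3.35 to 3.76 for TRO. For NACET against H2O2, where none was called, CLDN11 kept its sign with every alternative run, at -0.47 to -0.022 (control) and -0.46 to -0.071 (edited) when 1 library was left out, and the sign of CNTN1 and TRO was not fixed. Leaving out 1 library gave -0.068 to 1.45 (control) and -0.049 to 0.32 (edited) for CNTN1, and -0.22 to 0.26 and -0.015 to 0.28 for TRO. TRO in control cells came to -8.26e-05 with DESeq2, -0.000626 in 1 fit of 18 libraries and -0.00177 with the replicate block. The interaction ran from -1.28 to 0.25 (CNTN1), -0.21 to 0.26 (CLDN11) and -0.17 to 0.33 (TRO). The cause of these changes of sign was not tested.

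The counts of called genes that serve as background moved more. With the replicate block, which changed no call of the 3 genes, they became 843 from 528 (edited against control, untreated), 1018 from 648 (NACET), 1524 from 763 (H2O2), 1019 from 499 (NACET against H2O2, control), 2092 from 1121 (edited) and 160 from 1 (interaction). The interaction gave 109 with DESeq2, 6 with no filter and 2 in 1 fit of 18 libraries. Leaving out 1 library gave 261 to 901, 320 to 917, 400 to 2416, 164 to 588, 257 to 1601 and 0 to 20 in the same order. In the 5 pairwise comparisons the lowest count came each time without a replicate 2, namely edited untreated, edited NACET, edited H2O2, control NACET and edited H2O2 replicate 2. With a pseudocount of 0.1, 1 of the 3 genes most like CNTN1 within lines was kept, and 0 of those most like TRO. Depth limits CNTN1 and TRO in control cells, where a library held 3 to 40 reads of them.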
